A study of Homo sapiens with 4 samples.

Results

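The response of OPM2 cells to KPT-9274 is described here as the difference between 2 arrays: cells treated with KPT-9274 for 48 h, and cells given no agent, for which the labels state no time. OPM2 is an established human multiple myeloma line, and KPT-9274 is an oral small molecule known to inhibit both the kinase PAK4 and NAMPT, the rate-limiting enzyme of NAD salvage. The series holds 4 whole-transcript arrays, the other 2 being treated and untreated cells labelled KMS11, and neither line carries an engineered allele in the labels. Of 22393 genes measured by a transcript cluster with 1 symbol, 8360 had a mean log2 signal over the 2 OPM2 arrays at or above the mean of both arrays' backgrounds, 7.23, and these are the genes described. The background of an array was the 95th percentile of its 392 olfactory receptor genes, which was 6.81 on the control and 7.65 on the treated array. At that limit NOL12 (mean 7.23) lay just inside and RNU6-61P (mean 7.225) just outside. With 1 array per condition there is no replicate, no test was possible, and the number of arrays limits the precision of every value below. Time in culture, the compound and the array cannot be told apart.

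Myeloma cells are malignant plasma cells. They keep a transcription factor circuit led by IRF4, make and fold large amounts of secreted protein, and often carry translocations that raise FGFR3 and NSD2, MAF or a cyclin D gene. NAD is a cofactor of redox enzymes and the substrate of sirtuins and PARPs, while PAK4 is a serine/threonine kinase downstream of the small GTPase CDC42 that acts on actin and growth signalling. The OPM2 label was checked against plasma cell markers, of which 8 of 10 were described. JCHAIN, the immunoglobulin joining chain, read 16.99 on the control and 16.88 on the treated array, and PRDM1, the repressor behind plasma cell fate, 12.47 and 12.29. SDC1 (6.75 and 6.42) and SLAMF7 (5.66 and 5.96), also plasma cell surface markers, were under background on both arrays. The 8 described had a median level-matched difference of -0.825, with 4 at least 2-fold lower on the treated array, IRF4, XBP1, POU2AF1 and TNFRSF17, and 0 higher. Of the marker lists of other cell types, B cell, NK cell, stromal and endothelial markers had 0 described members. The T cell gene THEMIS (11.12 and 12.00, a level-matched difference of 1.12), the myeloid TYROBP, the erythroid KLF1 and the epithelial EPCAM and KRT8 were described, and CD3D, CD3E, LYZ, HBB and KRT19 read under background on both arrays.

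The treated array read higher than the control at the dim end of the signal range. Of the 392 olfactory receptor genes 358 were higher on the treated array (median 5.24 on the control and 5.685 on the treated array), and the median over all clusters was 5.75 and 6.07, while the 95th percentile was 11.37 on both. Among the described genes the median difference, treated minus control, was -0.25 on the log2 scale. It was -0.32 for the 3437 genes with a mean level of 8 to 10 and 0.005 for the 272 genes at 14 or above. Each difference is therefore also given as a level-matched difference, that is, minus the median difference of the described genes nearest in mean level, 250 on either side. Where 1 array read under its own background, the difference is a bound against the higher background and is written as "at least", on the scale of the deposited values. Level-matched differences had a 10th percentile of -0.76 and a 90th percentile of 0.79.

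By this measure 498 of the 8360 genes (5.96%) read at least 2-fold higher on the treated array and 371 (4.44%) at least 2-fold lower, and 74 of the lower ones were bounds. Without level matching the split was 274 higher and 727 lower. Among the 7234 protein-coding genes 262 (3.62%) passed this limit as higher and 355 (4.91%) as lower, the shares against which the counts of each gene list below are to be read. Protein-coding genes at least 4-fold apart numbered 18 higher and 9 lower, with bounds taken on the deposited scale. The lists overlap in members and were chosen with earlier results of these data known, so their counts and medians describe these 2 arrays. Where a gene is given with paired log2 signals, the first is the control and the second the treated array, and the value after them is its level-matched difference. A list whose median lies within 0.25 of 0 is given as a value and carries no direction.

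**Figure D1:**
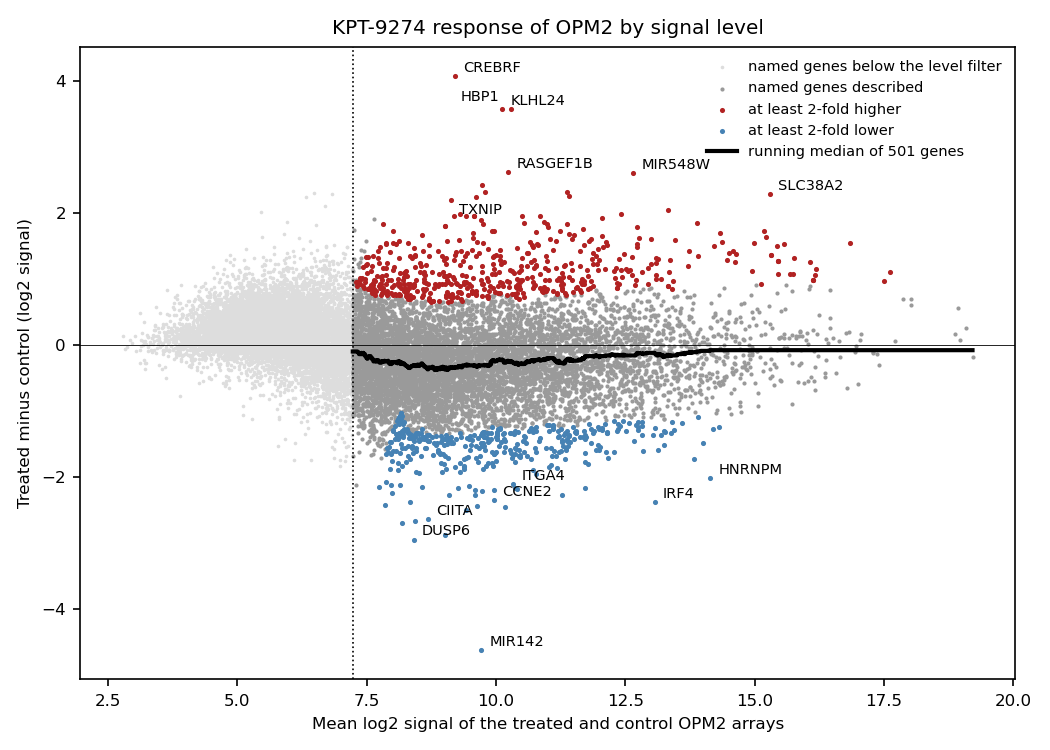
Difference between the treated and the control OPM2 array (log2 signal, vertical axis) against the mean log2 signal of both (horizontal axis), 1 point per named gene. Red and blue points are the 498 genes called higher and the 371 called lower at 2-fold; the black line is the running median of the described genes, which lies below 0 over most of the range, and the dotted line marks the level filter at 7.23.

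CREBRF, HBP1 and KLHL24 read furthest above their level-matched neighbours. CREBRF, a negative regulator of CREB3 factors in the unfolded protein response, read 7.16 on the control and 11.24 on the treated array, a level-matched difference of 4.42. The transcriptional repressor HBP1, which restrains cell cycle genes, read 8.50 and 12.07 (3.83). KLHL24, an adaptor of a ubiquitin ligase, read 8.33 and 11.90 (3.80). These 3 stood apart: the next, the Ras-family exchange factor gene RASGEF1B, read 8.93 and 11.55 (2.87). PELI2, an E3 ligase of interleukin-1 receptor signalling, read 8.51 and 10.93 (2.73), and TMEM140 8.50 and 10.74 (2.57). TXNIP, an inhibitor of thioredoxin and of glucose uptake, read 8.02 and 10.22 (2.55). The lysosomal protease LGMN read 10.21 and 12.53 (2.55) and the splicing kinase CLK1 10.29 and 12.54 (2.48).

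The other 11 of the 20 highest were of mixed function. The neutral amino acid transporter SLC38A2 was already bright, at 14.16 on the control array, and read 16.44 on the treated one (2.36). SLC17A5, which exports sialic acid from lysosomes, read 8.21 and 10.17 (2.30), EPG5, an autophagosome tether, 8.76 and 10.65 (2.20), and SERINC5, a membrane protein that restricts retroviruses, 9.88 and 11.84 (2.20). The clock repressor NR1D2 read 9.53 and 11.49 (2.25), the kinase subunit PIK3CG 9.61 and 11.46 (2.14) and SECISBP2L 11.08 and 13.00 (2.09). CCNG2, a cyclin linked to cell cycle exit, read 6.89 and 8.72 (2.08). TUT7, which adds uridines to RNA, read 9.99 and 11.85 (2.08), PPP1R15A, the phosphatase subunit that reverses eIF2 phosphorylation, 7.14 and 8.86 (1.99), and TIPARP, a mono-ADP-ribosyltransferase that uses NAD, 10.11 and 11.89 (1.98). All 20 read above background on both arrays.

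Of the protein-coding genes CIITA ranked lowest, where bounds stood on the deposited scale and other genes on the level-matched one. As deposited, DUSP6 (-2.95), RGS16 (-2.70) and ABCD2 (-2.67) differed more than CIITA (-2.64). This master regulator of MHC class II genes read 10.01 on the control array and 7.37, under background, on the treated one, at least 2.36 log2 units lower. IRF4, the transcription factor on which myeloma cells depend, read 14.26 and 11.88, a level-matched difference of -2.26. The ERK phosphatase DUSP6 read 9.88 and 6.93, at least 2.23 lower. RASSF4 read 10.66 and 8.16 (-2.19), BRI3BP 11.40 and 8.95 (-2.18), and the peroxisomal transporter ABCD2 9.76 and 7.09 (at least 2.11 lower). CCNE2, a cyclin of S phase entry, read 11.14 and 8.79 (-2.11), and POP1, a protein subunit of RNase P and RNase MRP, 10.86 and 8.42 (-2.11). FAM111B read 12.81 and 10.64 (-1.99) and MYOM2 9.65 and 7.50 (at least 2.00 lower).

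The remaining 10 of the 20 lowest were of mixed function. ZWILCH, a kinetochore protein, read 12.42 and 10.15 (-1.99), the transcription factor BHLHE22 10.74 and 8.46 (-1.97) and UEVLD 10.24 and 7.96 (-1.94). The splicing factor HNRNPM was the brightest of the group, at 15.15 and 13.13 (-1.94). SQLE, which commits squalene to sterol synthesis, read 10.84 and 8.63 (-1.90), and TIPIN, a replication fork protein, 11.50 and 9.32 (-1.90). RGS16, which damps G protein signals, read 9.53 and 6.83 and GPR180 9.53 and 7.15, each at least 1.88 lower. The heme exporter FLVCR1 read 11.46 and 9.29 (-1.88) and adenosine deaminase, ADA, 10.70 and 8.50 (-1.89). Of the 20, CIITA, DUSP6, ABCD2, MYOM2, RGS16 and GPR180 were under background on the treated array.

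**Figure D2:**
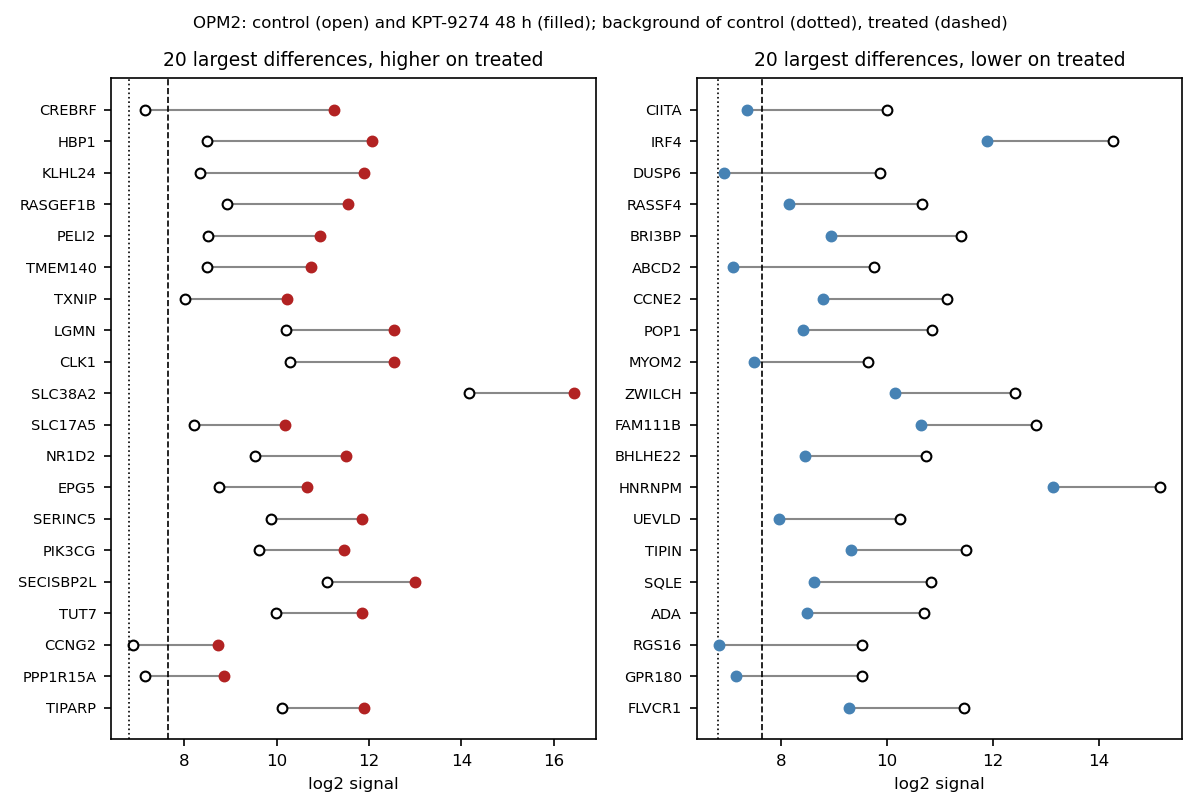
Log2 signal of the 20 protein-coding genes ranked furthest each way, with the control array as open and the treated array as filled points, 1 array each. Genes were ranked by level-matched difference, or by the bound where 1 array read under its background. The dotted and dashed lines are the backgrounds of the control (6.81) and treated (7.65) arrays; the control points of CREBRF, CCNG2 and PPP1R15A lie between them, and the treated points of 6 genes on the right lie left of the dashed line.

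Of the compound's known targets NAMPT could be compared and PAK4 could not. NAMPT read 10.02 on the control and 10.75 on the treated array, a deposited difference of 0.73. Its level-matched difference was 1.0, exactly at the 2-fold limit. The call ends without level matching, and also where a smoothed curve (lowess) replaces the running median in level matching. PAK4 read 6.94 and 6.97, the latter under the treated array's background, so no difference is given. PAK2, the 1 PAK kinase described, read 13.18 and 13.10 (0.07).

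Genes that make NAD differed little. The 7 described NAD salvage and synthesis genes had a median of 0.31, which turned to -0.03 without level matching and to -0.35 under median centring. NMNAT1, which makes NAD in the nucleus, read 8.30 and 8.60 (0.62). QPRT, of the de novo route, read 7.87 and 8.19 (0.58), while NADSYN1, the NAD synthetase, read 8.54 and 7.89 (-0.36). Of the 11 described genes in the list of NAD-consuming enzymes 1 was at least 2-fold higher and 0 lower (0 and 1 as deposited), and the median was 0.24. That gene was the tankyrase TNKS2, at 10.83 and 11.75 (1.20). TIPARP, which also uses NAD and is given above (1.98), was not in the list. The nuclear deacetylase SIRT1 read 10.72 and 11.41 (0.89) and PARP14, a mono-ADP-ribosyltransferase of immune signalling, 9.73 and 8.46 (-0.93), so the consumers pointed both ways. Of 18 PAK kinases and actin effectors 1 was at least 2-fold higher, 0 were lower, and the median was -0.075. The higher one was WASL, an activator of actin branching, at 9.81 and 10.90 (1.37).

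Cell cycle genes differed by phase. In RNA of a whole culture, fewer cells in a phase and less RNA per cell cannot be told apart. Entry into S phase depends on cyclin D and E kinases, which release E2F factors, and these then switch on the MCM helicase and fork genes. Of 8 described G1 and S cyclins and CDKs 4 were at least 2-fold lower and 0 higher (median -0.78). CCNE2 was the lowest, as above. Cyclin D2, CCND2, was bright on both arrays, at 14.69 and 12.96 (-1.62). Cyclin E1, CCNE1, read 10.54 and 9.0 (-1.23), and the CDK2-activating phosphatase CDC25A 9.06 and 7.69 (-1.05). CCNA2, the cyclin of S phase and G2, did not share this and read 14.46 and 14.61 (0.23). All 10 E2F factors had level-matched differences below 0 (median -0.475) and 1 was at least 2-fold lower, or 2 as deposited. The 1 was E2F2, an activating member, at 10.19 and 8.40 (-1.47). E2F1 read 9.65 and 8.64 (-0.67).

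Origin licensing genes load and fire the MCM helicase, and 18 of the 23 described had level-matched differences below 0. Of the 23, 5 were at least 2-fold lower (10 as deposited) and 0 higher, and the median was -0.69. The helicase paralogue MCM8 read 13.87 and 12.50 (-1.22). CDC6, which helps load the helicase, read 11.89 and 10.49 (-1.13), and the helicase subunit MCM3 13.17 and 11.99 (-1.02). The GINS subunit GINS2 read 9.20 and 7.92 (-1.0). CDC7, the kinase that fires origins, read 8.95 and, under background, 7.63 (at least 1.30 lower). Its activating subunit DBF4 read 12.72 and 12.81 (0.21), and MCM2 9.90 and 9.37 (-0.21), so the list was not uniform.

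Promoters are shown for MCM3 and CDC6, whose transcripts read lower, and after the mitotic genes for 3 whose transcripts read higher, because the letters before their starts differ in part. Each is the 250 bases before the start in RefSeq, build GRCh38.p14, 5′ to 3′ on the gene's strand, with E2F motifs (TTTCCCGC or TTTGGCGC), the cell cycle homology region CHR (TTTGAA) and CCAAT boxes in capitals on either strand.
MCM3, chr6:52284743-52284992, minus strand: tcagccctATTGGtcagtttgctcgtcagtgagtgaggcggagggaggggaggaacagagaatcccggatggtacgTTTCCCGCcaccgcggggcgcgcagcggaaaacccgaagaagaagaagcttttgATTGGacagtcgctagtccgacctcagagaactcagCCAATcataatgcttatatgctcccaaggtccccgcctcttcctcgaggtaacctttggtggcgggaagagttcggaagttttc
CDC6, chr17:40287629-40287878, plus strand: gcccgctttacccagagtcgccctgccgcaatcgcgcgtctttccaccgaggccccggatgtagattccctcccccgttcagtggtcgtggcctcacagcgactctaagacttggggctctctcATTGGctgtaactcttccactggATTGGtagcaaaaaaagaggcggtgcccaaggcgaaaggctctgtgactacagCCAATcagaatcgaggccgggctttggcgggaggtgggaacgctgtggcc

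The MCM3 window holds 1 E2F motif and 3 CCAAT boxes and the CDC6 window 3 CCAAT boxes. Only the exact letters were counted, so variants of a motif were not. CDC7 and MCM8, the other 2 members that the rule for promoters takes, held none of the 3 motifs and 1 CCAAT box. An E2F motif stood in 30% of the 20 described licensing promoters (6) and in 20.8% of 24 replication fork promoters, against 1.96% of all 27305 promoters of the table and 3.74% of those of the described protein-coding genes. CHR letters stood in 0 of either list, against 13.6% of all promoters. The search covered both strands, and no match overlapped another motif in the windows shown.

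The replication fork list was lower in the same way. Of 28 described genes 9 were at least 2-fold lower and 0 higher, with a median of -0.70. TIPIN, of the fork protection complex, was the lowest, as above, although its partner TIMELESS read 12.02 and 11.96 (0.11). CHTF8, part of an alternative clamp loader, read 10.26 and 8.33 (-1.61). The checkpoint mediator CLSPN read 10.47 and 8.76 (-1.39). Polymerase genes were among the 9. The primase subunit PRIM1 read 12.98 and 11.68 (-1.14), POLA1, of the same complex, 11.30 and 9.99 (-1.05), and POLE, of the leading strand enzyme, 9.35 and 7.98 (-1.02). POLE2, another subunit of that enzyme, read 9.21 and, under background, 7.48 (at least 1.56 lower). CHAF1B, a histone chaperone, read 10.02 and 8.63 (-1.05), and the fork adaptor WDHD1 11.08 and 9.76 (-1.04). The sliding clamp PCNA stayed inside the limit, at 11.93 and 11.06 (-0.63).

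Nucleotide synthesis genes, which supply the fork, had a median of -0.42 over 21 described, with 0 at least 2-fold apart, against 3 lower as deposited. CAD, which starts pyrimidine synthesis, read 9.25 and 8.01 (-0.91). The ribonucleotide reductase subunit RRM2 read 12.02 and 10.94 (-0.85).

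Homologous recombination and Fanconi genes, which repair broken and cross-linked DNA, had a median of -0.52 over 22 described, with 3 at least 2-fold lower and 1 higher, or 7 and 0 as deposited. The nuclease EXO1 read 11.97 and 10.15 (-1.62). BRCA1 read 10.24 and 8.51 (-1.42) and the ubiquitin ligase FANCL 10.46 and 9.06 (-1.09). CDK inhibitors and pocket proteins, which hold cells in G1, did not move as a list. Of 9 described 2 were at least 2-fold higher and 0 lower (1 and 3 as deposited), and the median was -0.25. Beside HBP1 the higher one was the zinc finger factor KLF6, at 10.86 and 11.69 (1.10). Both are transcription factors that the list also holds, so no CDK inhibitor or pocket protein was at least 2-fold higher. RBL1, an RB-like repressor of E2F genes, read 13.40 and 12.30 (-0.97), and its relative RBL2 10.54 and 9.38 (-0.92). CDKN1B, the inhibitor p27, read 10.65 and 10.81 (0.40).

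Mitotic genes read higher on the treated array relative to genes of like level. The 13 kinesins, motor proteins of the spindle, had a median of 0.50, which was -0.05 under median centring, with 4 at least 2-fold higher and 0 lower. KIF18A, which dampens chromosome movements, read 10.37 and 11.95 (1.83). The microtubule depolymerase KIF2C read 11.27 and 12.49 (1.39). KIF20A, needed for cytokinesis, read 10.71 and 11.72 (1.26), and the minus-end motor KIFC1 9.29 and 10.22 (1.24).

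Cytokinesis and condensation genes had a median of 0.41 over 22 described, -0.10 under median centring, with 5 at least 2-fold higher and 0 lower, or 4 and 1 as deposited. ANLN, a scaffold of the contractile ring, read 12.20 and 13.80 (1.72). PRC1, which bundles midzone microtubules, read 11.33 and 12.82 (1.66), and the centralspindlin subunit RACGAP1, 11.26 and 12.60 (1.50). The spindle protein DLGAP5 read 11.35 and 12.57 (1.39), and topoisomerase TOP2A 14.66 and 15.58 (1.0). The list had an exception in HMMR, another spindle protein, which read 10.05 and 8.90 (-0.84).

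Of the mitotic members with the largest differences, 3 promoters are shown. Their windows hold CHR letters, which the licensing windows lack, while CCAAT boxes stand in windows of both groups.
KIF18A, chr11:28108157-28108406, minus strand: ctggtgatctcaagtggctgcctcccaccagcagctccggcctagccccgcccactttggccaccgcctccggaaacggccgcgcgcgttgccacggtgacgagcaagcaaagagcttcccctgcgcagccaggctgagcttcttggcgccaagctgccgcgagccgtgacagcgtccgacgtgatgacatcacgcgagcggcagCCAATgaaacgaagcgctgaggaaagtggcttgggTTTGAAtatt
ANLN, chr7:36389612-36389861, plus strand: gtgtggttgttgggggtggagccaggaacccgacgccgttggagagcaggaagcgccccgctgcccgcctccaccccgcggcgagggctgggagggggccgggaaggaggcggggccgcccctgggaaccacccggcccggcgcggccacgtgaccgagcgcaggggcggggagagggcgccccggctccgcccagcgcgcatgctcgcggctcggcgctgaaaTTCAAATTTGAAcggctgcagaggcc
PRC1, chr15:90994536-90994785, minus strand: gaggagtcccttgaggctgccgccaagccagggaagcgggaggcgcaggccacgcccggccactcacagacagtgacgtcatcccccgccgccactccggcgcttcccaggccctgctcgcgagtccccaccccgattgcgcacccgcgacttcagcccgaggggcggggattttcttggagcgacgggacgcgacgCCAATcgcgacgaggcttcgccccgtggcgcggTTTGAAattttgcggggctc
KIF18A and PRC1 each hold 1 CHR motif and 1 CCAAT box, and ANLN holds 2 CHR motifs and no CCAAT box. The window of NDC80, taken by the same rule, held none of the 3. CHR letters stood in 73.7% of 19 cytokinesis promoters, 50% of 16 promoters of mitotic kinases and cyclins, 38.5% of 13 kinesin promoters and 28.6% of 21 checkpoint promoters, against 9.31% of those of the described protein-coding genes. E2F letters stood in 5.26%, 0%, 7.69% and 9.52% of the same lists. CCAAT boxes stood in 68.4%, 62.5%, 76.9% and 71.4% of them. They also stood in 65% of licensing and 54.2% of replication fork promoters, against 37.1% of those of the described protein-coding genes. Across all described protein-coding genes with a promoter, the CHR share was 16.2% for the 216 that were at least 2-fold higher and 9.93% for the 292 that were lower, and the E2F share was 2.31% and 4.79%. In all, 11 kinds of motif were searched over every list. FOXO letters stood in 1 of 13 FOXO promoters and the ATF4 motif in 0 of 12 integrated stress promoters. The sterol element stood in 1 of 18 cholesterol promoters and the CLEAR motif in 1 of 16 lysosomal ones. The NRF2 motif stood in 4 of 13 promoters of its list, the heat shock element in 3 of 15 and STAT letters in 0 of 11. Over the described protein-coding genes the shares were 0.588% for FOXO, 0.408% for ATF4, 0.8% for the sterol element and 0.702% for CLEAR. They were 12.3% for NRF2, 4.02% for the heat shock element and 5.7% for STAT letters. These are matches of letters in a window and were not tested.

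Mitotic kinases and cyclins had a median of 0.355 over 20 described, -0.225 under median centring, with 3 at least 2-fold higher and 1 lower. As deposited, 0 were higher and 1 lower, and with bounds level-matched too 0 were lower. CDK1, the kinase of mitotic entry, read 11.24 and 12.04 (1.03). The ubiquitin-conjugating enzyme UBE2C read 10.23 and 11.19 (1.19), and the centrosome kinase NEK2 9.65 and 10.59 (1.17). The lower one was BORA, an activator of Aurora A, at 8.86 and, under background, 7.56 (at least 1.21 lower). Cyclin B1, CCNB1, stayed inside the limit, at 11.92 and 12.53 (0.76). MYBL2, a factor that acts with the complex binding CHR promoters, went the other way, at 14.46 and 13.66 (-0.71).

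Spindle checkpoint and kinetochore genes had a median of 0.21 over 28 described, with 3 at least 2-fold higher and 1 lower, or 3 each as deposited. The checkpoint kinase TTK read 10.02 and 11.55 (1.76). NDC80, which grips microtubules, read 10.72 and 11.92 (1.48), and the kinetochore protein CENPF 13.11 and 14.31 (1.32). The centromere protein CENPI was the lower one, at 10.19 and 8.81 (-1.07). BUB1, another checkpoint kinase, read 13.53 and 13.00 (-0.36), so the list was not uniform.

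**Figure D3:**
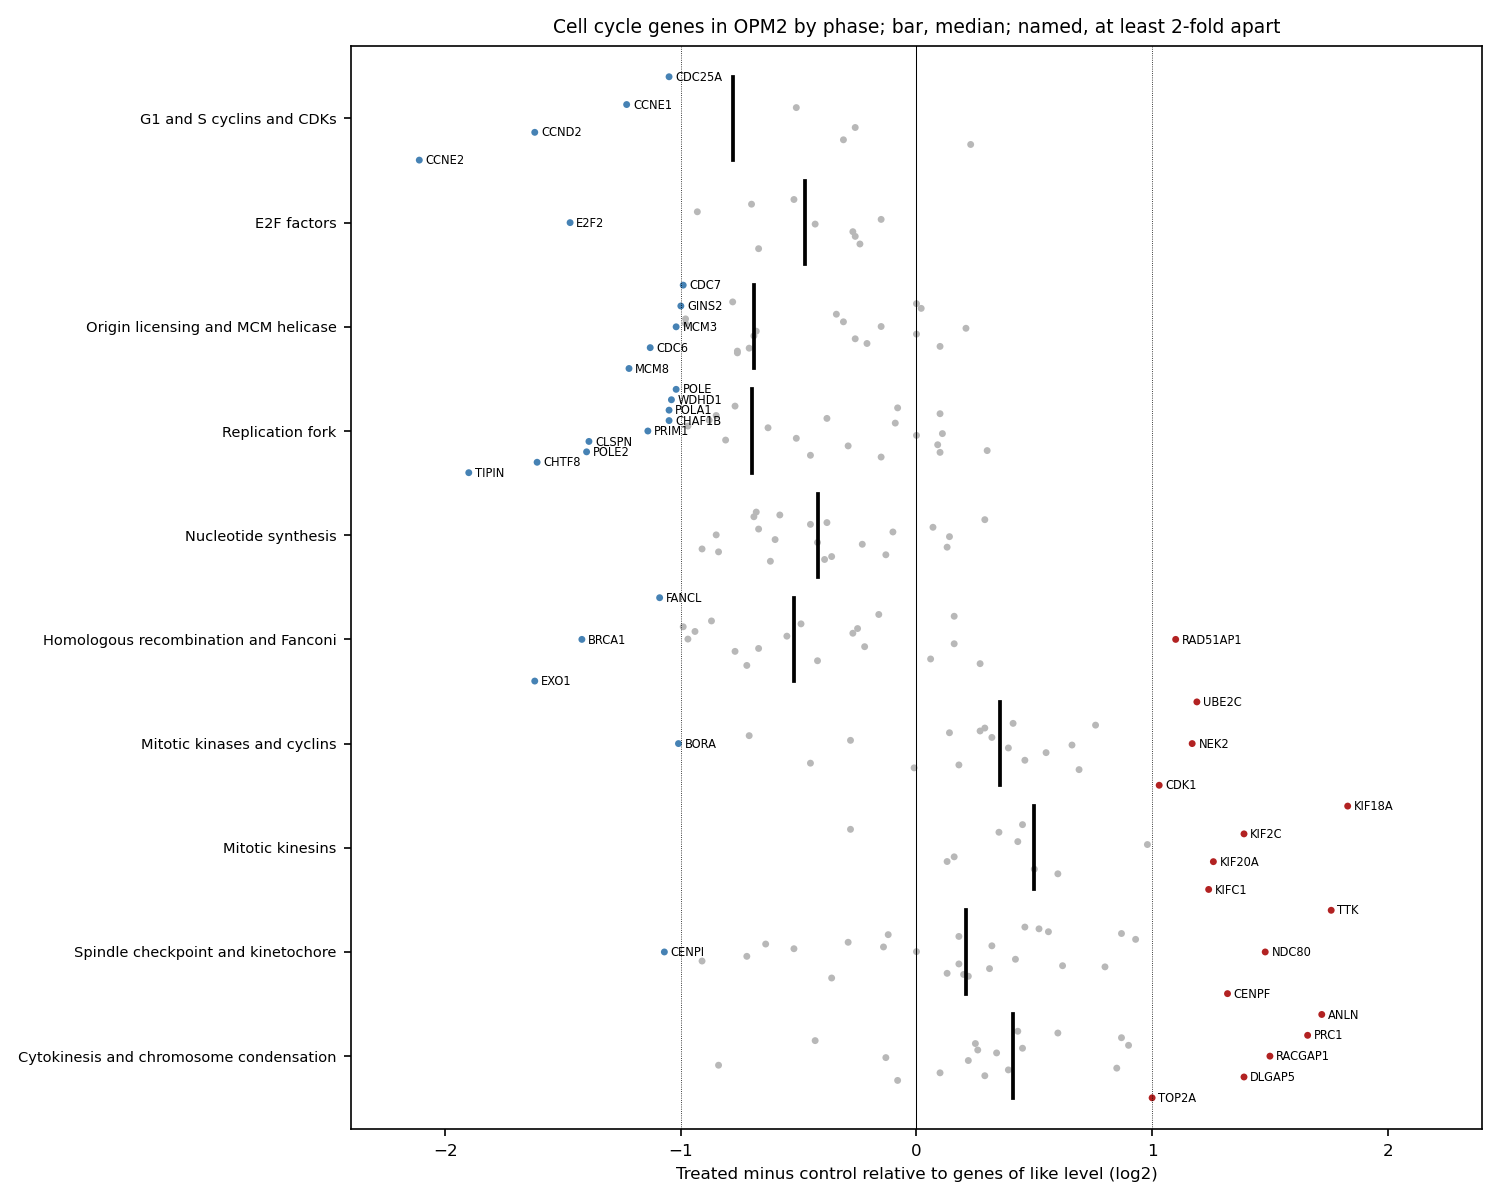
Level-matched difference (log2, horizontal axis) of each described gene of 10 cell cycle lists, with the list median as a black bar and genes at least 2-fold apart coloured and named. The 6 upper lists have medians of -0.42 to -0.78 and the 4 mitotic lists, at the bottom, medians of 0.21 to 0.50, all below 0 under median centring. Bounds were read on the deposited scale, so CDC7 is named although it lies just right of -1.

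MYC, a driver of growth and ribosome production, read 13.70 on the control and 12.44 on the treated array (-1.14). MXD1, which competes with MYC for its partner MAX, read 9.18 and 10.28 (1.41), and the related MXI1 10.68 and 11.16 (0.70). The 7 described genes of the network had a median of 0.14. Ribosome biogenesis factors lay on 1 side, in that 32 of 34 described had level-matched differences below 0, with a median of -0.415. At least 2-fold lower were 2 of them, and 6 without level matching, with 0 higher in either. UTP20, a processing factor of pre-ribosomal RNA, read 11.18 and 9.60 (-1.31), and RRP1B, another, 13.02 and 11.79 (-1.07). The assembly factor MRTO4 lay just inside the limit, at 10.78 and 9.55 (-0.96), as did RRS1, at 11.16 and 9.93 (-0.94). Nucleophosmin, NPM1, was the member above 0, at 13.29 and 13.18 (0.05). The ribosomal proteins themselves did not share this. Cytosolic ones had a median of 0.145 over 26 described and mitochondrial ones -0.09 over 41, with 0 at least 2-fold apart in either list (4 mitochondrial ones were lower as deposited).

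Plasma cell genes read lower as a list. Of 20 described plasma cell identity genes 4 were at least 2-fold lower, 0 were higher, 18 were below 0 after level matching, and the median was -0.495. All 20 read above background on the control and 14 on the treated array, whose background was higher. Over all 8360 described genes, 1379 were above background on the control only and 17 on the treated only. IRF4 had the list's largest difference, as above. TNFRSF17, the surface receptor BCMA, read 10.68 and 8.80 (-1.57). The secretory regulator XBP1 read 12.39 and 10.99 (-1.19), and the B lineage coactivator POU2AF1 10.47 and 9.08 (-1.08). PRDM1 (-0.02) and JCHAIN (-0.03) lay close to 0, as did IKZF3, a lymphoid factor that maintains IRF4, at 14.86 and 14.96 (0.18).

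Genes that myeloma translocations raise also read lower. The list's median was -0.61 over 10 described, with 3 at least 2-fold lower and 0 higher. Of these 3, CCND2 and MYC are given above, and the transcription factor MAF read 12.11 and 10.87 (-1.0). FGFR3, the receptor kinase at the translocation known in OPM2, read 13.55 and 12.45 (-0.98). NSD2, the histone methyltransferase at the same breakpoint, read 12.39 and 11.59 (-0.63).

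Some antigen presentation and interferon genes read lower, while the lists' medians depended on the filter. Of 19 described antigen presentation genes 3 were at least 2-fold lower and 0 higher (5 and 0 as deposited). Their median was -0.32, and -0.185 over the 14 above background on both arrays, within the limit for no direction. CIITA, the regulator of the class II genes, is given above. The class II loading factor HLA-DMA read 8.78 and, under background, 7.45 (at least 1.13 lower). The lysosomal reductase IFI30 read 13.73 and 12.36 (-1.25). The class II chain HLA-DRA, which CIITA controls, stayed bright at 16.25 and 15.68 (-0.49), and its chaperone CD74 read 12.50 and 11.73 (-0.61). The class I light chain B2M read 15.52 and 15.62 (0.18). Of 30 measured interferon genes 8 were described, with 2 at least 2-fold lower and 0 higher. Their median was -0.40, but -0.10 over the 12 above background on at least 1 array and -0.16 over all 30. BST2, which tethers virus particles, read 9.92 and 7.99 (-1.58), and the antiviral SAMD9L 13.50 and 12.14 (-1.23).

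Adhesion and G protein genes were mixed. In that list 2 of 14 were at least 2-fold higher and 1 lower (2 and 3 as deposited, median -0.135). The integrin ITGA4, which binds marrow stroma, read 11.39 and 9.28 (-1.84). RGS1, a regulator of G protein signals, read 12.97 and 14.82 (1.95), and its relative RGS2 9.70 and 10.83 (1.38), whereas RGS16 was among the 20 lowest. The chemokine receptor CXCR4 lay just inside the limit, at 10.45 and 9.15 (-0.99).

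FOXO targets gave the highest median of the 52 gene lists, 1.01, and 0.35 under median centring. Without the level filter the median was 0.59 over all 26 measured. FOXO factors drive genes of growth arrest and nutrient stress when insulin and AKT signalling is low. Of 15 described, 8 genes passed the limit as higher and 0 as lower, or 5 and 2 as deposited. KLHL24, TXNIP and CCNG2 are given above. The arrestin-like ARRDC3 read 11.83 and 13.62 (1.92). RICTOR, a subunit of mTORC2, read 10.83 and 12.07 (1.48), and the stress gene GADD45A 10.42 and 11.29 (1.10). The yippee proteins, a small conserved family, were represented by YPEL3 at 7.30 and 8.19 (1.14) and YPEL5 at 8.44 and 9.11 (1.01). The factors themselves differed: FOXO1 read 8.94 and 7.73 (-0.86) and FOXO3 10.76 and 11.03 (0.50). FBXO32, a FOXO-driven ubiquitin ligase, read 5.64 and 7.75 and missed the level filter.

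The mTORC1 nutrient sensing list had a median of 0.20 over 24 described, with 6 at least 2-fold higher and 0 lower, or 4 and 1 as deposited. The 6 do not share 1 direction of action on mTORC1. The folliculin partner FNIP1 read 9.97 and 11.46 (1.73), and FNIP2 8.07 and 9.14 (1.39). RRAGC, a GTPase that brings mTORC1 to the lysosome, read 8.76 and 9.70 (1.28). TSC1, whose complex inactivates RHEB, read 9.39 and 10.47 (1.32), and the methionine sensor SAMTOR 7.87 and 8.69 (1.14). RICTOR, a subunit of mTORC2 that is counted in the FOXO list too, is given above. MTOR itself read 11.01 and 10.10 (-0.63).

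Autophagy and lysosomal genes lay mostly above genes of like level. Autophagy genes had a median of 0.525 over 28 described, -0.035 under median centring, with 23 above 0, 5 at least 2-fold higher and 0 lower. Without level matching 1 was higher, ATG14, and 1 lower. ATG14, which directs the lipid kinase of nucleation, read 7.95 and 9.15 (1.50). The cargo receptor SQSTM1 read 9.06 and 9.96 (1.21), and GABARAP, a membrane tag of the autophagosome, 9.14 and 9.95 (1.12). ATG13, of the initiating kinase complex, read 9.58 and 10.38 (1.04), and the lipid transfer protein ATG2B 8.45 and 9.12 (1.02). Lysosomal genes had a median of 0.355, -0.22 under median centring, with 25 of 26 above 0, 2 at least 2-fold higher (1 as deposited) and 0 lower. NPC1, the cholesterol exporter, read 10.81 and 12.56 (1.95). The proton pump subunit ATP6V1A read 10.51 and 11.31 (1.03).

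Several lipid synthesis genes read lower. Fatty acid synthesis runs from ACLY through ACACA and FASN to the desaturase SCD and the elongases. Of 12 described genes 4 were at least 2-fold lower and 0 higher (6 and 0 as deposited). The median was -0.70, and -0.225 over all 16 measured without the level filter. FASN read 10.29 and 8.46 (-1.52), and SCD 13.93 and 12.33 (-1.44). The elongase ELOVL6 read 9.72 and 8.30 (-1.06), and ACACA, which makes malonyl-CoA, 10.42 and 9.10 (-1.01). ACLY, which makes cytosolic acetyl-CoA, lay just inside the limit at 14.36 and 13.35 (-0.90).

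Cholesterol genes had a median of -0.28 over 19 described, with 4 at least 2-fold lower and 1 higher. That median came to -0.16 over all 23 measured and -0.20 over the 21 above background on at least 1 array, within the limit for no direction. SQLE is given above. PMVK, of the mevalonate steps, read 12.00 and 10.31 (-1.44). The demethylase CYP51A1 read 12.22 and 10.79 (-1.19), and DHCR7, the last step, 10.39 and 9.02 (-1.06). The efflux pump ABCA1 was the higher one, at 8.21 and 9.31 (1.45). HMGCS1 read 9.81 and 9.22 (-0.28), so the early steps did not all pass the limit.

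**Figure D4:**
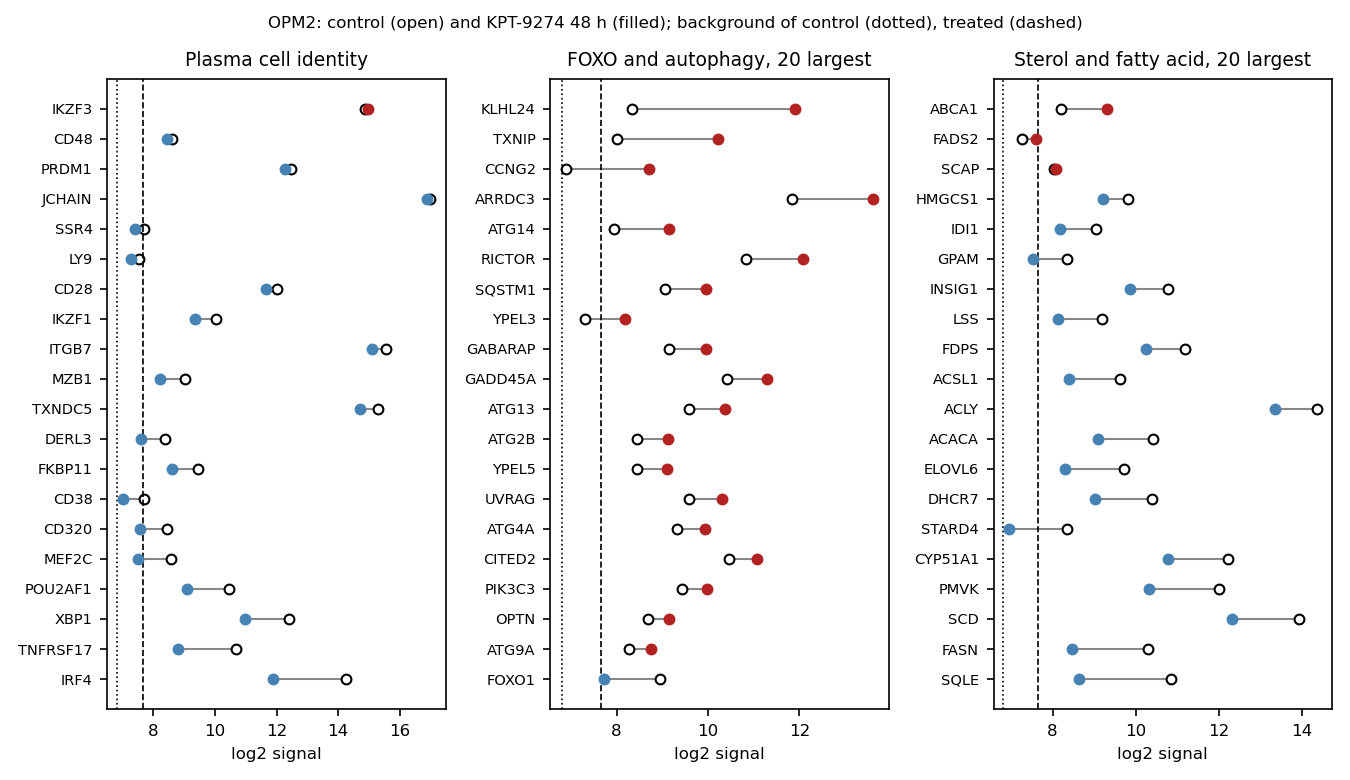
Log2 signal on the control (open) and treated (filled) OPM2 array for the 20 described plasma cell identity genes and, for the FOXO and autophagy lists and the lipid synthesis lists, the 20 members with the largest level-matched difference; red is higher and blue lower on the treated array as deposited. Dotted and dashed lines are the backgrounds, 6.81 and 7.65; IRF4, TNFRSF17 and XBP1 have the longest steps of the left panel, and KLHL24 of the middle one.

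Stress and amino acid genes were mixed. Of 14 described integrated stress response genes 4 passed the limit as higher and 1 as lower (median 0.23). CREBRF and PPP1R15A are given above. EIF2AK3, the kinase PERK, read 9.92 and 11.31 (1.65), and the stress regulator NUPR1 7.19 and 8.0 (1.02). The lower one was EIF2AK2, the double-stranded RNA sensor PKR, at 12.86 and 11.70 (-1.01). ATF4, the central factor of the pathway, read 12.77 and 13.03 (0.39). Its target DDIT3 read 8.22 and 8.20 (0.27), and TRIB3, another target, 7.55 and, under background, 7.22.

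Amino acid transporters had a median of -0.125 over 12 described, with 2 higher and 1 lower, or 1 and 2 as deposited. Beside SLC38A2 the higher one was SLC3A2, the heavy chain of several exchangers, at 10.84 and 11.71 (1.14). Its light chain partner SLC7A5 read 13.63 and 12.66 (-0.83), and SLC7A6, another partner, was the lower one at 11.76 and 10.19 (-1.36). Serine, asparagine and one-carbon enzymes had a median of 0 over 13 described and 0 members at least 2-fold apart. Among them asparagine synthetase, ASNS, read 9.12 and 9.56 (0.78). The cytosolic tRNA synthetases had a median of -0.02 over 19 and 0 genes higher. Both subunits of the phenylalanine enzyme were lower, with FARSA at 12.73 and 11.22 (-1.34) and FARSB at 14.19 and 13.00 (-1.06).

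Protein folding and degradation genes differed little as lists. Of 31 described ER folding and secretion genes 1 was at least 2-fold higher and 2 lower (median -0.16). ERN1, the stress sensor IRE1 that splices XBP1 RNA, read 8.47 and 9.51 (1.40), while XBP1 itself was lower, as above. The oxidase ERO1A read 14.00 and 12.49 (-1.33). The chaperone HSPA5 read 15.76 and 15.23 (-0.45). Proteasome genes had a median of -0.15 over 33, with 1 lower and 0 higher. The lower one was PSME2, an activator subunit induced by interferon, at 11.85 and 10.54 (-1.04). Heat shock genes had a median of 0.15 over 17, with 2 at least 2-fold higher and 0 lower. These were co-chaperones of HSP70, DNAJB1 at 9.91 and 11.62 (1.94) and DNAJB4 at 8.27 and 9.85 (1.95). HSP90AA1 read 15.75 and 15.85 (0.18). NRF2 and ferritin genes had a median of 0.33 over 17, -0.28 under median centring, with 2 higher (1 as deposited) and 0 lower. Beside SQSTM1 the higher one was HMOX1, the heme oxygenase, at 6.85 and 8.18 (1.54). The glutathione enzyme subunit GCLM read 10.13 and 10.71 (0.86).

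ERK signalling induces its own inhibitors, which serve as a readout of its output. Of 18 measured feedback and ETV genes 8 were above background on the control and 0 on the treated array, whose background was higher (7.65 against 6.81). Over all 8360 described genes, 1379 were above background on the control only and 17 on the treated only. Of the 3 described members of the list, DUSP6 and SPRED1, a Ras pathway inhibitor (8.79 and 7.13, at least 1.14 lower), passed the 2-fold limit and 0 were higher. DUSP5, another ERK phosphatase, read 8.41 and 6.74 (at least 0.76 lower). All 3 were under background on the treated array, so no median is given. SPRY1, also a feedback inhibitor, read 7.62 and 6.17 and missed the level filter. In the list of AP-1, KLF and early response genes 2 of 11 passed the limit as higher (1 as deposited) and 1 as lower (median -0.22, and 0.41 over genes above background on both arrays). DUSP10, a phosphatase of stress MAP kinases, read 8.49 and 10.08 (1.92), beside KLF6, and MYC was the lower one.

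Other signalling lists held few genes at least 2-fold apart. None of 14 NF-kB genes was (median -0.02), and the inhibitor NFKBIA read 11.34 and 10.65 (-0.48). In the interleukin-6, JAK-STAT and PIM list, 1 of 12 was higher and 1 lower (median -0.15). The survival kinase PIM1 read 11.96 and 13.49 (1.66), and STAT6, which carries interleukin-4 signals, 12.03 and 10.73 (-1.09). The shared receptor IL6ST lay just inside the limit, at 15.16 and 16.07 (0.99). Wnt genes had a median of -0.52 over 10 described, with 2 lower and 0 higher. Both were frizzled receptors, FZD3 at 9.75 and 8.09 (-1.29) and FZD6 at 9.67 and 8.20 (-1.13). Beta-catenin, CTNNB1, read 8.50 and 8.37 (0.18).

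Of 16 described p53 targets and death receptors 4 were higher and 2 lower (median 0.04). TP53INP1, which links p53 to autophagy, read 9.10 and 10.82 (1.96). PMAIP1, the BH3 protein NOXA, read 9.88 and 11.08 (1.49), the p53 inhibitor MDM4 8.91 and 10.09 (1.49) and CCNG1, a p53 target, 12.44 and 13.75 (1.45). Both lower ones were death receptors, FAS at 12.11 and 10.65 (-1.25) and TNFRSF10A at 10.67 and 9.40 (-1.04). CDKN1A, the p21 inhibitor and a main p53 target, was under background on both arrays. In the BCL2 family 2 of 11 were higher and 0 lower, with a median of 0.16. Beside PMAIP1 the higher one was the survival gene BCL2, at 12.69 and 13.69 (1.16). MCL1, on which many myelomas rely, read 13.40 and 13.35 (0.12).

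In the splicing list 4 of 29 described were higher and 1 lower (3 and 2 as deposited, median -0.11). All 4 higher ones phosphorylate SR proteins. Beside CLK1, these were CLK3 at 9.90 and 11.29 (1.64), CLK4 at 8.21 and 9.02 (1.14) and SRPK2 at 10.78 and 11.81 (1.31). HNRNPM was the lower one, and SRSF1, a founding SR protein, read 15.24 and 14.22 (-0.94). Of 10 described clock genes 3 were higher and 0 lower, while 6 lay below 0 and the median was -0.035. NR1D2 was joined by its relative NR1D1, at 7.61 and 8.61 (1.25), and by RORA, which binds the same elements as an activator, at 9.89 and 10.99 (1.40). PER2, of the negative limb, read 9.0 and 7.86 (-0.82). Chromatin genes had a median of -0.135 over 34, with 2 higher and 2 lower, or 1 and 3 as deposited. The methyltransferase EZH1 read 10.58 and 11.75 (1.42), and the histone demethylase KDM5A 10.97 and 11.73 (1.0). DNMT3B, a DNA methyltransferase, read 9.93 and 8.21 (-1.36), and the histone methyltransferase KMT2D 10.49 and 8.95 (-1.23). EZH2, the paralogue of EZH1 in dividing cells, read 11.39 and 10.57 (-0.61).

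Energy metabolism genes mostly stayed within the 2-fold limit. Respiratory chain genes had a median of 0.075 over 40 described, with 0 higher and 0 lower. Glycolysis genes had a median of -0.15 over 23, with TXNIP higher and 1 gene lower. That gene was PDK3, a kinase that restrains pyruvate entry, at 8.96 and, under background, 7.32 (at least 1.31 lower). LDHA, lactate dehydrogenase, read 13.87 and 12.97 (-0.74). The TCA cycle and malate-aspartate list had a median of -0.03 over 18, with 1 gene each way, the higher one with level matching only. The transaminase GOT1 read 9.47 and 10.21 (1.05), and the NAD-dependent dehydrogenase subunit IDH3A 12.67 and 11.41 (-1.09). Hypoxia genes had a median of 0.01 over 15, with ERO1A lower and 1 gene higher. This was the histone demethylase KDM3A, at 9.68 and 11.15 (1.75).

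Glycan and GPI anchor genes had a median of -0.37 over 28, with 4 lower and 0 higher. Both kinds of enzyme were among the 4. PIGW, of GPI synthesis, read 9.03 and, under background, 6.90 (at least 1.38 lower), and PIGN, of the same pathway, 12.09 and 10.66 (-1.20). The glucosyltransferase ALG8 read 13.65 and 12.04 (-1.48), and ALG6, which acts a step earlier, 8.67 and, just under background, 7.64 (at least 1.02 lower).

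**Figure D5:**
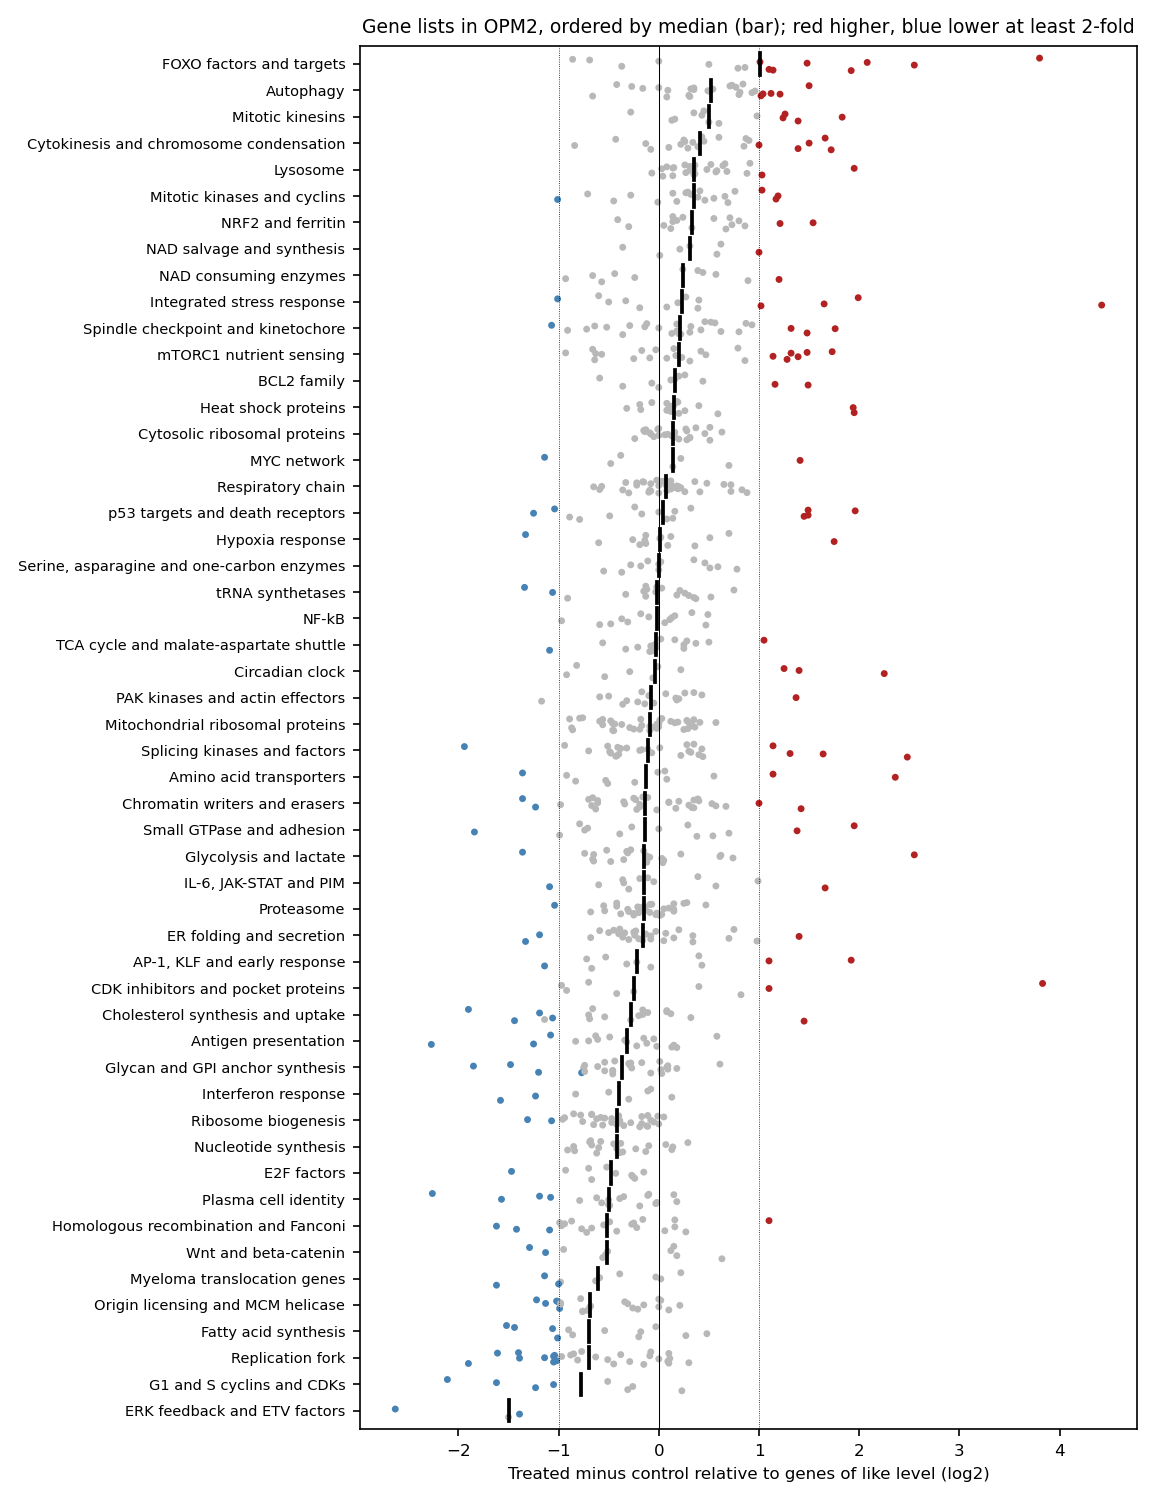
Level-matched difference (log2, horizontal axis) of each described member of 52 gene lists, ordered by the list median (black bar). FOXO factors and targets stand at the top with a median of 1.01; G1 and S cyclins (-0.78) and fatty acid synthesis (-0.70) are among the lowest. The ERK feedback list is drawn last, but its 3 described genes were all under background on the treated array, so that place is no measured rank. Under median centring the medians of the mitotic kinesins, mitotic kinases and cyclins, cytokinesis, autophagy, lysosome, NRF2 and NAD salvage lists lay below 0.

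Clusters of small RNAs differed from protein-coding genes. MicroRNAs are short RNAs that repress transcripts through a seed at bases 2 to 8. The values do not tell mature microRNAs from their longer precursors or host transcripts. The mature sequences of the genes with the largest differences are shown, from RefSeq, 5′ to 3′ with the seed in capitals.
hsa-miR-548w: aAAAGUAAcugcgguuuuugccu
hsa-miR-548al: aACGGCAAugacuuuuguacca
hsa-miR-548o-3p: cCAAAACUgcaguuacuuuugc
hsa-miR-3689c: cUGGGAGGugugauauuguggu
hsa-miR-3689b-3p: cUGGGAGGugugauauuguggu
hsa-miR-142-3p: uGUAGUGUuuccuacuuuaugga
hsa-miR-142-5p: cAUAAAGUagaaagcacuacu
hsa-miR-4521: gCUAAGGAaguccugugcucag
hsa-miR-5047: uUGCAGCUgcgguuguaaggu
The printed miR-3689 sequences are identical, so their genes may share signal, and the printed miR-548 members have different seeds.

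MIR142, the gene of a microRNA abundant in blood cells, had the largest difference of all described genes that read lower. It read 12.03 on the control array and 7.40, under background, on the treated one, at least 4.38 log2 units lower. MIR4521 read 10.45 and, under background, 7.57 (at least 2.80 lower) and MIR5047 14.74 and 13.25 (-1.40). These 3 were the microRNA genes at least 2-fold lower. The next lowest were MIR590 (9.75 and 8.55, -0.85) and MIR4533 (8.82 and 8.12, -0.39). On the other side MIR548W read 11.35 and 13.96 (2.77), MIR3689C 8.63 and 10.95 (2.63), MIR548AL 8.32 and 10.30 (2.31), MIR548O2 12.30 and 14.35 (2.21) and MIR3689B 8.82 and 10.66 (2.15). Of 1040 measured microRNA genes 184 were described, and 70 of them (38.0%) were at least 2-fold higher, with a median of 0.93. Pseudogenes that are not known to be transcribed had 89 of 328 higher (27.1%) and 2 lower (median 0.685), and small nucleolar RNAs 26 of 143 higher (18.2%) and 1 lower (median 0.52), against 3.62% of protein-coding genes. Several 5S ribosomal RNA pseudogenes were among them, and RNA5SP311 and RNA5SP317 both read 8.60 and 10.56, the same values on each array. That pair was chosen after its values were seen. The raised dim end of the treated array moves with these classes, and its part in them was not tested. Of 30 described immunoglobulin variable segments 6 were higher and 2 lower (median 0.39).

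The KMS11-labelled arrays give the same contrast in other cells and share no array with OPM2. There 263 of 8885 described protein-coding genes (2.96%) were at least 2-fold higher on the treated array and 502 (5.65%) lower. Of the 248 genes higher in OPM2 and described in both lines, 69 (27.8%) were also higher on the KMS11-labelled arrays and 5 lower. Of the 311 lower ones described in both, 85 (27.3%) were also lower and 3 higher. CREBRF (7.90 on the control and 11.40 on the treated array), HBP1 (8.03 and 10.05), KLHL24 (8.62 and 10.44), CLK1 (11.16 and 12.83) and NAMPT (7.71 and 9.05) passed the limit as higher in both. For NAMPT in OPM2 this held only with level matching by the running median. MIR142 (10.32 and 7.61), CCNE2 (9.10 and 7.74) and BRI3BP (12.43 and 10.39) were lower in both. SLC38A2, at 15.34 and 14.54, LGMN, under background on both KMS11-labelled arrays, and SQLE, at 12.29 and 12.84, did not repeat their OPM2 difference there. IRF4 read 6.75 and 6.59 there, close to the backgrounds of 6.45 and 6.56, which goes against what is known of myeloma lines, so these arrays are called by their label. The difference between the lines has no test with 1 array each.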

How the data were processed

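RNA of untreated OPM2 cells and of OPM2 cells treated with KPT-9274 was measured on 1 array each. Per the labels' protocols, total RNA was isolated with a miRvana kit and labelled with the WT Plus kit. The deposited log2 signals, 1 per transcript cluster, came from the authors' run of Transcriptome Analysis Console, as the submitters' processing notes state. Normalization, summarization and build were not given in the sources used here. That the scale is log2 was taken from the values.

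Of 65528 clusters 22755 had 1 symbol, 1389 several and 41384 none. Symbols were updated with GRCh38.p14 tables, used for names and RefSeq sequences alone (20539 by gene number, 1916 by current symbol, 296 by an older symbol, 4 kept). For the 345 genes with more than 1 cluster, the brightest cluster by its 4-array mean was used. Backgrounds, the level filter, level matching and bounds are as given above, and a gene was called at 1 log2 unit. The calls were tested on simulated data with a smooth level trend, while a trend with a step had given false calls. The simulated noise was narrower than the spread of the real differences, and the planted differences were 4-fold. The simulation therefore gives no error rate for calls at the 2-fold limit in these data. Work was done in Python 3.11.15 with numpy 2.4.6, pandas 2.3.3 and statsmodels 0.14.6.

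Named genes are the 20 protein-coding genes with the largest level-matched difference or bound each way, the 5 such microRNA genes each way, NAMPT, PAK4 and members of 52 gene lists and 9 marker lists. The members and lists were chosen with earlier results of these data known. Some choices followed a look at the data: the olfactory receptor names that set the background, the 250-base promoter window, the limit of 0.25 for a list's direction, and bounds on the level-matched scale as an alternative. The first was changed from 366 genes to 392 after both sets of counts had been seen. Alternatives covered scaling, level matching, the filter on dim genes and the cluster of a gene. Some members of the lists are not reported by name here.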

Additional observations from a re-analysis of the deposited data

Results flagged for a closer look

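Among named genes and list members, 3 were at least 2-fold apart in opposite directions in OPM2 and on the KMS11-labelled arrays, and the difference between the lines was not tested, since each condition has 1 array. BCL2, the survival gene, had a level-matched difference of 1.16 in OPM2 and -1.77 on the KMS11-labelled arrays. PIM1, a survival kinase, had 1.66 and -1.93. CYP51A1, a sterol demethylase, had -1.19 and 1.23.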

How the results depend on the processing

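No paired analysis was possible because each condition has 1 array. Counts of genes at least 2-fold higher and lower were 498 and 371. Without level matching they were 274 and 727 as deposited, 259 and 709 after quantile normalization and 134 and 1625 after median centring, which moved the median difference of the described genes to -0.57. All 371 lower genes stayed lower under these 3 scalings, and 274, 258 and 134 of the 498 stayed higher. The running median lay below 0 over most of the range, so leaving it out lowers most differences. Lower genes were thus largely certain to stay lower, and these counts do not show falls to be firmer than rises. The other 8 settings gave 439 to 622 higher and 298 to 488 lower, with 499 and 326 where bounds were level-matched too, and 521 and 390 with the 366 olfactory receptor names that leave out pseudogenes (backgrounds 6.615 and 7.3875), both added after seeing the data. Level-matching the bounds left, for example, 4 lower genes in origin licensing, 2 in antigen presentation, 1 in ERK feedback and 0 in mitotic kinases and cyclins. Under median centring, which lowers every list, the medians turned to -0.35 for NAD salvage (and -0.03 as deposited), -0.225 for mitotic kinases, -0.05 for mitotic kinesins, -0.10 for cytokinesis, -0.28 for NRF2, -0.035 for autophagy and -0.22 for lysosome. It moved homologous recombination to -1.11, interferon to -1.06, cholesterol to -0.91, glycolysis to -0.75, amino acid transporters to -0.745, chromatin to -0.73, serine enzymes and hypoxia to -0.64, NF-kB to -0.63, tRNA synthetases and p53 targets to -0.61, and FOXO targets to 0.35. Without a filter the ERK feedback median, -1.50 over 3 genes under background on the treated array, was -0.54, and over genes above both backgrounds the AP-1 median was 0.41. Over the 52 lists, the other 497 recomputed medians moved by less than 0.585 (1.5-fold). Of the 20 and 5 largest each way, no gene at least 2-fold apart changed direction. These genes were picked for large differences, which made such a change unlikely. The 2 arrays limit precision, and dim genes most.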
